A study of Mus musculus with 10 samples.

Results

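The genes described here are 53 genes of the cell cycle and of DNA replication, read in the infrarenal aorta of mice 7 days after elastase or saline infusion. They were chosen by name, and every non-control spot whose gene name equalled one of them was used. All 53 had a probe, out of 35527 gene names on the array, and 49 of them were tested among 22520 names. Testing required an aortic signal clearly over the local background on 5 or more of the 10 arrays. The members fall into 4 roles: 9 genes of G1 (cyclins, kinases and E2f1), 13 of DNA replication, 26 of mitosis and 5 inhibitors of cyclin-dependent kinases.

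The samples came from male C57BL/6J mice aged 10 weeks on a normal diet. In the PPE group, the segment between ligatures was filled for 5 min at 100 mmHg with porcine pancreatic elastase (PPE) at 1.5 U/mL, whose breakdown of elastin leads to an abdominal aortic aneurysm. Sham mice had the same ligatures, incision and infusion with saline alone, so both groups carry the surgery. Each group held 5 arrays, with RNA of 1 aorta (500 ng) in the red channel of each, and the whole treated segment was taken. The green channel of every array held the same universal reference, a pool of mouse cell line RNA. Each value below is the log2 ratio of the aorta to that reference on 1 array. There 0 is the level of the reference after each array was scaled in the way described under the processing. Differences between groups are PPE minus sham on that scale.

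Cells divide by passing through a growth phase (G1), DNA synthesis (S), a second gap (G2) and mitosis (M). Cyclins bind and switch on cyclin-dependent kinases (CDKs). D-type cyclins with Cdk4 or Cdk6, and then E-type cyclins with Cdk2, release E2F factors from the retinoblastoma protein, and E2F turns on the genes of replication. The genes of mitosis are turned on later, and inhibitors of the Cdkn families hold the kinases back. In the healthy adult aorta few cells divide, whereas cell lines in culture divide continually.

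The stretches before the annotated start of 7 members are shown first, since the roles differ in short sequence words found there. They come from the RefSeq promoter table (GRCm38.p6), which holds 44 of the 53 members. Each stretch is the 200 bases before the start, read in the direction of the gene. Capitals mark the words searched on both strands. TTTGAA is the core of the cell cycle homology region that many mitotic genes carry, and TTCGAA is a variant of it. The word CCAAT is bound by the factor NF-Y. The E2F words were TTTCCCGC, TTTCGCGC, TTTGCCGC and TTTGGCGC. Neighbouring words can overlap, as in Mcm5 and Mcm6. Birc5, Mki67 and Rrm2 had the largest differences of their roles, Top2a holds 3 of the words at once, Mcm5 and Mcm6 hold the same E2F words but differed in their values, and Cdkn2c was the inhibitor that fell.
Birc5, chr11:117849037-117849236 (plus strand): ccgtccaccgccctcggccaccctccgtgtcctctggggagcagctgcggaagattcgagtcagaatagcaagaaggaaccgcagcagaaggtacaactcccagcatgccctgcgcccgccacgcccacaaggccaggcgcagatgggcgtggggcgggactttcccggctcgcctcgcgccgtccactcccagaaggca
Mki67, chr7:135716380-135716579 (minus strand): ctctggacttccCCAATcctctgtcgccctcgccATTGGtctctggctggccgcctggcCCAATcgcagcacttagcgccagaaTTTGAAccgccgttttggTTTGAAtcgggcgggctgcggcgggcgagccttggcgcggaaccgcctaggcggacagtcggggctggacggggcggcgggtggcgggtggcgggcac
Top2a, chr11:99024190-99024389 (minus strand): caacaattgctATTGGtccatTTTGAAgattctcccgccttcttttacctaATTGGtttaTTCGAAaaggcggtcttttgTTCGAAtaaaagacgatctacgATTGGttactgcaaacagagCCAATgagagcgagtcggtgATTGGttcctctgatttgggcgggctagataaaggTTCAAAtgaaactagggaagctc
Rrm2, chr12:24708054-24708253 (plus strand): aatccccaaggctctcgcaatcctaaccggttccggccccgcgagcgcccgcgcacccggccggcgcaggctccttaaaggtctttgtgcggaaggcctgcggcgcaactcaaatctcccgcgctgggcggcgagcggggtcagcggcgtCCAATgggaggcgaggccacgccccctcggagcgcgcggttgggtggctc
Mcm5, chr8:75109309-75109508 (plus strand): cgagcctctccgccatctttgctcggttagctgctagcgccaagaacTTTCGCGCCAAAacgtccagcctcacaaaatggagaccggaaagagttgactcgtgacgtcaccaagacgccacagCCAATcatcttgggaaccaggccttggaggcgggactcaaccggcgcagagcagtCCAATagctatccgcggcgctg
Mcm6, chr1:128359706-128359905 (minus strand): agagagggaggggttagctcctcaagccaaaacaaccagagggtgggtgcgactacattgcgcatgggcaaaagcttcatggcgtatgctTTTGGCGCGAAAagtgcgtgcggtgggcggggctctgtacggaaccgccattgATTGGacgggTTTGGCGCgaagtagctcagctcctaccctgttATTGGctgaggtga
Cdkn2c, chr4:109666757-109666956 (minus strand): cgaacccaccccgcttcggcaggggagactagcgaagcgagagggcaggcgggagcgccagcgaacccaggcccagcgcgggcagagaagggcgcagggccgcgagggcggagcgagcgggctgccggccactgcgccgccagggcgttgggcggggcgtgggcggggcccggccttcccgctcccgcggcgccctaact

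TTTGAA stood in the windows (250 bases before to 50 after the start) of 16 of the 22 mitotic members with a window. Over all 27025 genes of the table the share was 20.2%. Of the 11 replication members with a window it was found in 2, Mcm2 and Cdc45, and of the 6 G1 members in 0. E2F words were more frequent in replication than in mitotic members. They were found in 5 of the 11 replication members (Mcm3, Mcm5, Mcm6, Mcm7 and Cdc6) and in 1 of the 22 mitotic members, Cdk1. Among G1 members 1 of 6 held them (Cdk2), and among inhibitors 1 of 5 (Cdkn2a), against 2.6% of all genes. CCAAT was found in 18 of the 22 mitotic and 9 of the 11 replication members, against 41.1% of all genes. In Mki67 the TTTGAA words began 116 and 98 bases before the start, and in Top2a they began 179 and 23 bases before it. TTTGAA was in 10 of 15 mitotic members that rose and in 4 of 5 that did not pass the test. E2F words were in 3 of 7 replication members that rose and in 2 of 4 that did not pass. Birc5, with the largest difference of all members by the probes used, held none of the words in its window. A word in a window is a match of letters, and its use in the aorta was not measured.

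Of the 49 members tested, 30 were upregulated in PPE-treated aortas versus sham and 2 were downregulated at a limma adjusted p under 0.01. Over all 22520 names tested, the shares were 13.9% higher and 9.96% lower, against 61.2% and 4.08% of the members. The median difference of the members was 0.96 on the log2 scale, and that of all names was 0.02. With Bub1, which was below background in sham, set to the bound given below, the members' median was 0.94. With arrays centred on their median in place of loess, 408 of the 22520 names were higher and 8 lower. Among the 49 members, 8 were then higher and 0 lower. These were Birc5, Mki67, Cenpe, Ccna2, Ccnb1, Cdc20, Tpx2 and Rrm2. The median of all names then shifted to 0.41, and 98.1% of all calls were higher, against 58.2% with loess. The 22 other members that had risen kept positive differences of 1.37 to 2.49, with adjusted p from 0.0105 to 0.211. Which scaling is nearer to the tissue cannot be told from these arrays. More than a 2-fold rise was seen in 21 members. Every PPE array lay above every sham array in 29 members and below in 2. Over all names, the groups were apart in this way in 15.0% (PPE above) and 10.5% (PPE below). The tissue was taken whole, so more cells of a dividing type and more RNA per cell cannot be told apart in any value here.

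**Figure D1:**
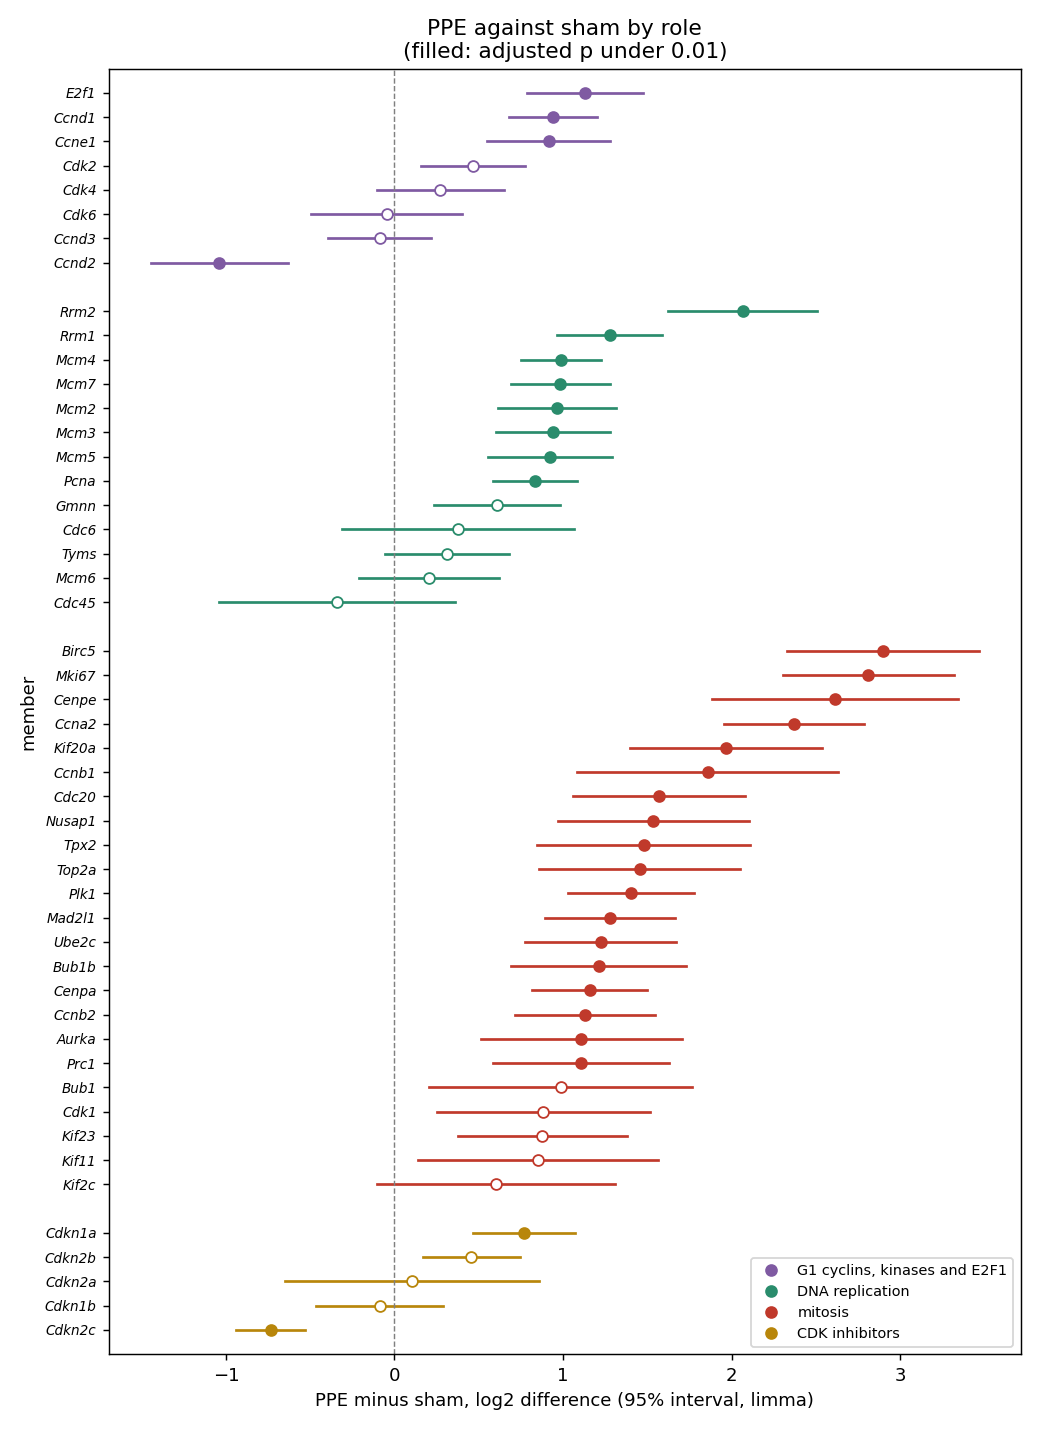
Difference between 5 PPE and 5 sham arrays for each of the 49 members tested, with its 95% interval, grouped by role (horizontal axis: PPE minus sham, log2 scale; filled points passed an adjusted p of 0.01). The 18 filled mitotic points all lie above 1, most of the replication points lie near 1, and the CDK inhibitors lie on both sides of 0.

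The mitotic members rose the most. Of 26, 23 were tested and 18 rose (78.3%, against 13.9% of all names), all by more than 2-fold, and 0 fell. Their median difference was 1.28, from 0.60 for Kif2c to 2.90 for Birc5. Birc5 encodes survivin, the subunit of the chromosomal passenger complex that guides it to centromeres. Its log2 ratios were -5.41, -4.58, -4.82, -4.74 and -3.82 on sham 1 to 5 and -2.02, -2.21, -1.58, -1.66 and -1.41 on PPE 1 to 5. The lowest PPE array was above the highest sham array by a wide margin. The difference was 2.90 (SE 0.26, 7.45-fold, adjusted p 8.51e-06), and its probe lies at chr11:117716978-117717037 (mm9). The 2 other probes of Birc5 gave smaller differences of 1.32 (adjusted p over probes 0.00159) and 0.82 (0.0763), and the latter did not pass. Over the other settings the difference of Birc5 went down to 1.68 and that of Mki67 to 2.60.

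Mki67, the gene of the proliferation antigen Ki-67, read -5.64, -4.64, -4.58, -4.89 and -4.29 in sham and -2.07, -2.34, -1.77, -1.71 and -2.10 in PPE. The groups were far apart. The difference was 2.81 (SE 0.23, 7.02-fold, adjusted p 4.57e-06), and a second probe gave 2.62. The probe of Mki67 lies at chr7:142881591-142881650 (mm9). Cenpe encodes a kinesin of the kinetochore that brings chromosomes to the spindle equator. Its values were -5.53, -4.36, -4.37, -4.82 and -3.66 in sham and -2.44, -2.40, -1.70, -1.94 and -1.21 in PPE. The difference was 2.61 (SE 0.33, 6.12-fold, adjusted p 0.000102) with no overlap, and PPE 5 was the highest array. Its probe lies at chr3:134936387-134936446 (mm9).

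Top2a encodes topoisomerase II alpha, which untangles replicated chromosomes. It read -4.66, -3.38, -3.67, -3.94 and -2.99 in sham and -2.22, -2.71, -2.14, -1.95 and -2.35 in PPE. Here the nearest arrays, sham 5 and PPE 2, were only slightly apart. The difference was 1.46 (SE 0.27, 2.74-fold, adjusted p 0.00146), read by a probe at chr11:98855522-98855581 (mm9).

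The other mitotic members that rose cover each step of division. The cyclins Ccna2 (2.37), Ccnb1 (1.86) and Ccnb2 (1.13) were higher. So were the kinases Plk1 (1.40), Aurka (1.11) and Bub1b (1.21), and the checkpoint gene Mad2l1 (1.28). Cdc20 (1.57) and Ube2c (1.22), which serve the ubiquitin ligase that ends mitosis, rose too. Genes of the spindle and of cytokinesis followed, with Kif20a (1.96), Nusap1 (1.54), Tpx2 (1.48) and Prc1 (1.11), and the centromeric histone Cenpa rose by 1.16. Aurka was the only one of the 18 whose groups overlapped, since PPE 2 (-2.87) fell below sham 5 (-2.73). It lost its call when any of 8 of the 10 arrays was left out, with adjusted p up to 0.025 over all settings. Prc1 lost its call without sham 3, PPE 3 or PPE 4.

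All 18 mitotic members that rose were well above background on all 10 arrays, and the 5 that did not pass were dimmer in sham. Cdk1, the kinase of B-type cyclins, had a difference of 0.88 (95% interval 0.25 to 1.52, adjusted p 0.0332). Kif23 stood at 0.88 (adjusted p 0.0108), Kif11 at 0.85 (0.0619) and Kif2c at 0.60 (0.176). In each of these, the sham signal was well above background on only 3 or 4 of the 5 arrays. Bub1, a kinase of the spindle checkpoint, was well above background on 0 of 5 sham and on 5 of 5 PPE arrays (group means -3.85 and -2.86). Its fitted difference was 0.99 (95% interval 0.21 to 1.77, adjusted p 0.0506), and its bound in the red channel was 1.92-fold. A bound of this kind sets the mean PPE signal against the lowest signal that counted as above background on each sham array. The probe's own sham signal was used where it was higher, and the bound carries no interval. Bub1 entered the test through its PPE arrays alone. The other 4 were called higher with the signals as processed by the scanner software, and Cdk1, Kif23 and Kif11 also when background was corrected without an added offset. These 3 were called as well with the slide or the scan day as a fixed block. The offset, added to each signal in the values used here, draws the ratios of dim probes towards 0.

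Probes of the same member could disagree in size. The 3 probes of Ccnb1 gave 1.86, 0.62 and 0.51, and those of Mad2l1 gave 1.28, 0.59 and 0.44. In both, only the brightest probe passed the test over probes, and the mean of the probes did not pass. The 2 probes of Ube2c gave 1.22 and 1.86, and both passed.

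The remaining 3 mitotic members were too dim to enter the test, and without that filter none of them was called (adjusted p 0.781 for Ttk, 0.955 for Cenpf and 0.802 for Aurkb). Ttk, a checkpoint kinase, was well above background on 0 of 5 sham and 4 of 5 PPE arrays, with a bound of 1.11-fold. Cenpf, of the kinetochore, was above background on 0 sham and 3 PPE arrays, and its bound was under 1. Aurkb, the kinase of the passenger complex, was above background on 0 arrays of either group, and the reference did not reach background there either. Its partners in that complex, Birc5, Incenp (1.34) and Cdca8 (1.35), all rose.

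Among the 13 replication members, all tested, 8 rose (61.5%, against 13.9% of all names) and 0 fell, with a median difference of 0.93. The largest rise was that of Rrm2, the small subunit of ribonucleotide reductase, which makes DNA precursors and is kept to S phase. It read -5.16, -4.50, -4.62, -4.49 and -4.02 in sham and -2.71, -2.86, -2.34, -2.31 and -2.24 in PPE. No array came near the other group. The difference was 2.06 (SE 0.20, 4.18-fold, adjusted p 1.52e-05), with the probe at chr12:25398824-25398883 (mm9). Rrm1, the large subunit, had a tight sham group of -3.17, -2.94, -2.87, -2.92 and -2.90 and PPE values of -1.56, -1.95, -1.41, -1.45 and -2.05. It rose by 1.28 (SE 0.14, 2.42-fold, adjusted p 4.21e-05) at chr7:109617223-109617283 (mm9).

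Of the 6 subunits of the MCM helicase, which unwinds DNA from the origins, 5 rose by 0.93 to 0.99 in the probes used. Mcm4 read -2.48, -2.19, -2.22, -2.22 and -2.34 in sham and -1.29, -1.47, -1.15, -1.16 and -1.45 in PPE. Both groups were narrow and lay well apart. The difference of Mcm4 was 0.99 (SE 0.11, 1.98-fold, adjusted p 3.57e-05), at chr16:15624372-15624431 (mm9). Mcm7 (0.98), Mcm2 (0.96), Mcm3 (0.94) and Mcm5 (0.93) stood beside it. A second, dimmer probe of Mcm3 gave a larger difference of 1.33 (adjusted p over probes 4.36e-05). Mcm6 was the exception, with a difference of 0.21 (95% interval -0.21 to 0.62, adjusted p 0.448). Its probe was well above background on all 10 arrays, and the upper end of its interval lies below the other 5 estimates. It has 1 probe, and it was not called under any of the 24 other settings. Whether the probe or the transcript sets it apart was not tested.

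Pcna, the sliding clamp of the DNA polymerases, read -2.28, -2.11, -2.38, -2.52 and -2.12 in sham and -1.35, -1.45, -1.66, -1.37 and -1.42 in PPE. The groups did not overlap. It rose by 0.83 (SE 0.11, 1.78-fold, adjusted p 0.00017), at chr2:132075022-132075054 (mm9). Geminin (Gmnn), which blocks a second round of origin licensing, stood at 0.61 (adjusted p 0.0156) and passed in 9 of 24 other settings. Cdc6, a loader of the helicase, had 0.38 (interval -0.31 to 1.07), but 1.72 (adjusted p 0.000507) with processed signals. Thymidylate synthase (Tyms) had 0.31 (-0.06 to 0.68). Cdc45, a subunit of the active helicase, had -0.34 (-1.04 to 0.36). Cdc6 and Cdc45 were above background on only 3 of the 5 sham arrays, and their intervals are wide.

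Of the 9 G1 members 8 were tested, with a median difference of 0.37. Of these, 3 rose (37.5%, against 13.9% of all names) and 1 fell (12.5%, against 9.96%). E2f1, the activating E2F factor, read -2.42, -2.22, -2.26, -2.17 and -1.67 in sham and -1.10, -1.31, -1.01, -0.95 and -0.71 in PPE. It rose by 1.13 (SE 0.16, 2.19-fold, adjusted p 0.000182) without overlap, at chr2:154385798-154385857 (mm9). Cyclin E1 (Ccne1) rose by 0.92, while its second probe was dim and was not tested. Ccne2 was above background on 0 arrays and was left out as too dim (adjusted p 0.678 without that filter).

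Each of the 3 D-type cyclins behaved differently. Cyclin D1 (Ccnd1) read -1.54, -1.42, -1.35, -1.52 and -1.15 in sham and -0.66, -0.43, -0.22, -0.59 and -0.37 in PPE. It rose by 0.94 (SE 0.12, 1.92-fold, adjusted p 0.000102), at chr7:152116202-152116261 (mm9). Cyclin D2 (Ccnd2) was above the reference on 4 of 5 sham arrays, with 0.59, 0.41, -0.17, 0.50 and 0.43, and below it on all PPE arrays, with -0.53, -0.20, -0.84, -0.86 and -1.02. The groups met closely, at sham 3 and PPE 2, but did not overlap. Ccnd2 fell by 1.04 on the log2 scale (SE 0.19, adjusted p 0.00107), at chr6:127098696-127098755 (mm9). With median centring the difference of Ccnd2 was -0.32 (adjusted p 0.798), where all names had a median of 0.41. Cyclin D3 (Ccnd3) read 0.31, 0.27, 0.01, 0.16 and 0.23 in sham and 0.03, -0.13, 0.05, 0.01 and 0.60 in PPE. These overlapped, with a difference of -0.09 (95% interval -0.39 to 0.22, adjusted p 0.68), at chr17:47736579-47736638 (mm9), and a second probe gave -0.10.

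None of the 3 kinases of G1 passed the test. Cdk2 had a difference of 0.47 (adjusted p 0.0227), Cdk4 of 0.27 (0.257) and Cdk6 of -0.05 (0.888). Cdk2 did pass with slide as a random block (0.00465), with scan day as a fixed block, by SAM and without PPE 2. Cdk4 has 3 probes, and a dimmer one passed the test over probes at 0.62 (adjusted p 0.00107). Another gave 0.50 (0.105), and the mean of the 3 probes passed (limma adjusted p 0.00322).

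**Figure D2:**
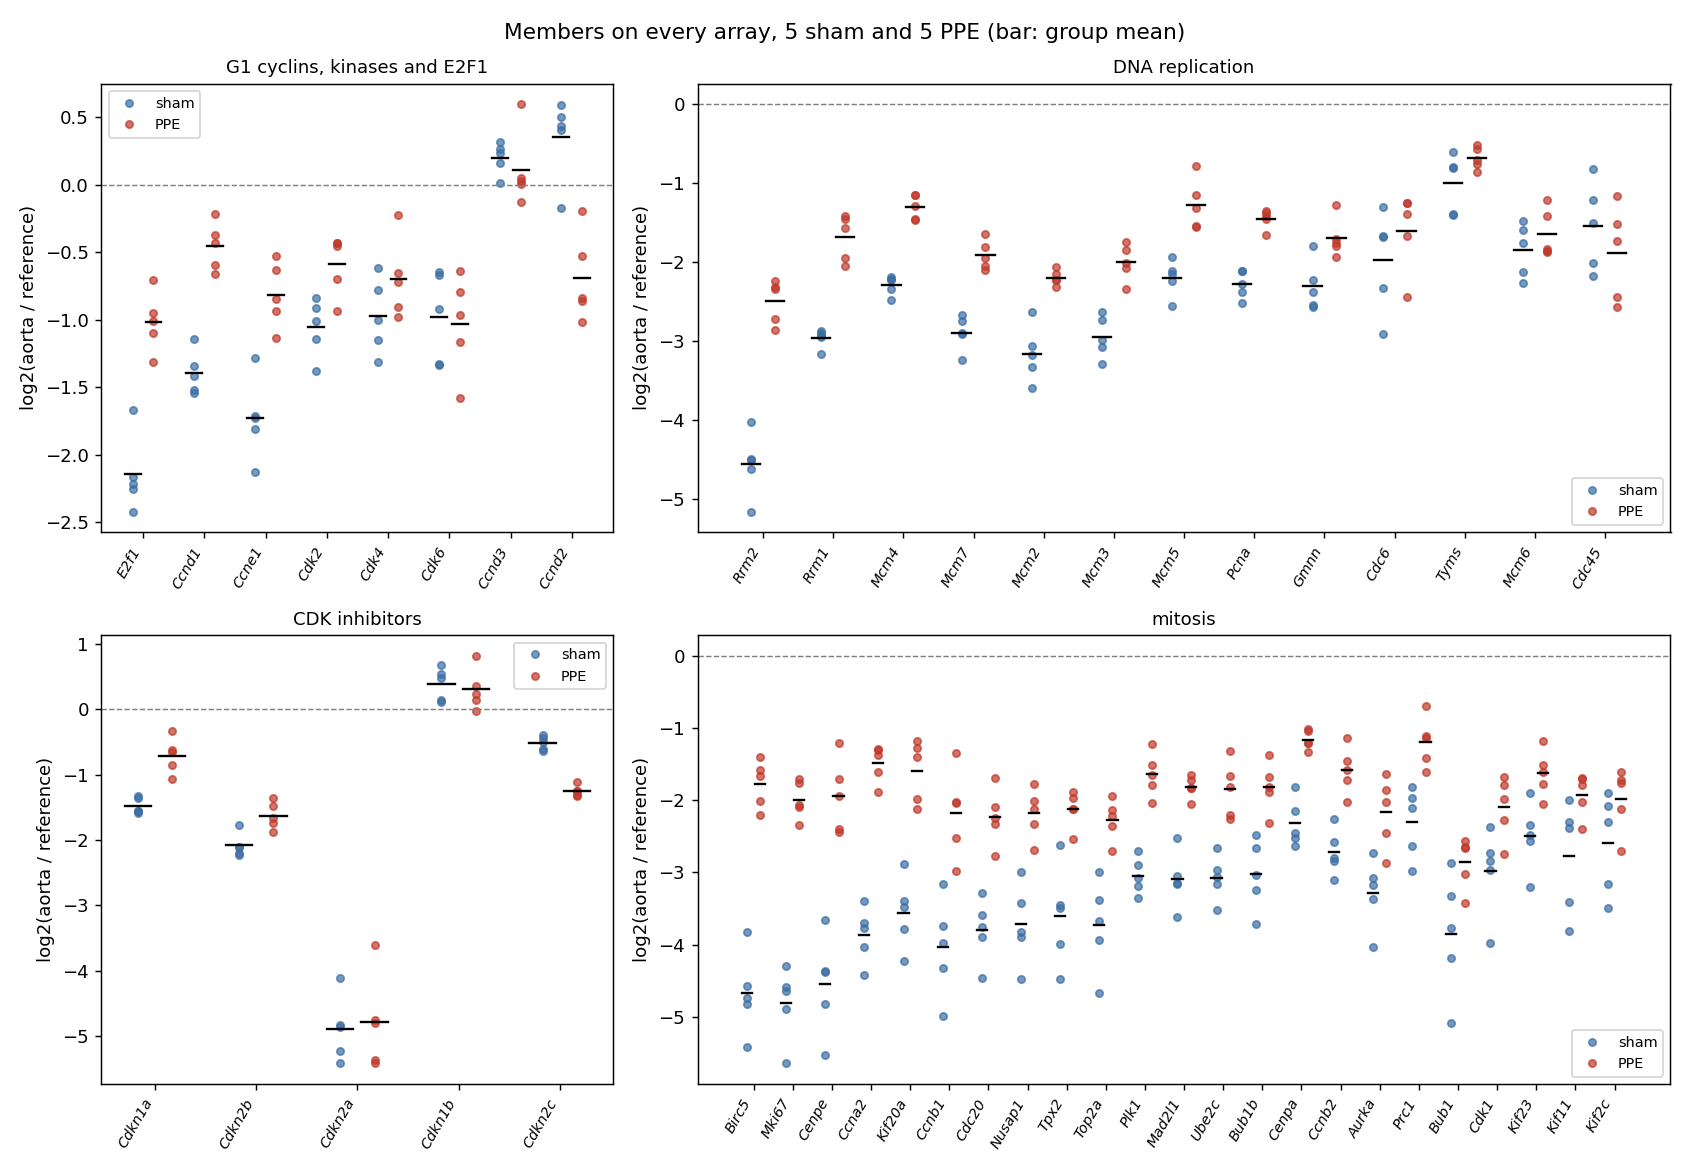
Log2 ratio of aorta over reference on each of the 5 sham and 5 PPE arrays for the 49 members tested, with 1 panel per role, genes ordered by difference and bars at the group means. Sham and PPE points of Birc5, Mki67 and Rrm2 are far apart, those of Cdkn2c lie apart with PPE below, and those of Ccnd3, Cdkn1b and Cdkn2a overlap.

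The 5 CDK inhibitors, whose products oppose the kinases above, did not move as a group. Cdkn1a rose, Cdkn2c fell and 3 did not pass the test. The 1 rise and the 1 fall were 20% of them each, against 13.9% and 9.96% of all names. Their median difference was 0.10. Cdkn1a encodes p21, a target of p53 that binds the CDKs of G1 and S phase. Its values were -1.35, -1.32, -1.59, -1.55 and -1.55 in sham and -0.33, -0.85, -0.66, -0.62 and -1.07 in PPE. The groups lay apart, with PPE 1 highest. The difference was 0.77 (SE 0.14, 1.70-fold, adjusted p 0.00116), at chr17:29237377-29237436 (mm9). A second tested probe, annotated to another transcript of Cdkn1a, had a difference of -0.42 (adjusted p over probes 0.0283), and the mean of both did not pass. The rise thus rests on 1 probe.

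Cdkn2c encodes p18, which binds Cdk4 and Cdk6. It had the narrowest groups of the inhibitors, with -0.44, -0.63, -0.39, -0.60 and -0.50 in sham and -1.33, -1.11, -1.25, -1.32 and -1.25 in PPE. All PPE arrays were below all sham arrays. Cdkn2c fell by 0.73 on the log2 scale (SE 0.09, adjusted p 0.000108), at chr4:109333508-109333567 (mm9). With median centring its difference was -0.09 (adjusted p 0.932), so the fall depends on the scaling. Cdkn2b, the gene of p15, read -2.20, -2.22, -2.11, -1.76 and -2.11 in sham and -1.48, -1.74, -1.36, -1.88 and -1.67 in PPE. Sham 4 lay within the PPE values. Its difference was 0.46 (95% interval 0.17 to 0.74, adjusted p 0.0182), at chr4:88952276-88952335 (mm9), and it passed without sham 4.

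Cdkn1b encodes p27, which holds resting cells in G1. It read 0.15, 0.55, 0.11, 0.48 and 0.67 in sham and 0.15, 0.35, 0.24, -0.03 and 0.82 in PPE, near the level of the reference. The groups overlapped fully, with a difference of -0.09 (95% interval -0.46 to 0.29, adjusted p 0.746), at chr6:134875424-134875483 (mm9). Cdkn2a encodes p16 and, in another reading frame, Arf. It read -5.42, -4.86, -4.83, -5.24 and -4.11 in sham and -5.41, -5.37, -4.76, -4.80 and -3.60 in PPE. Both groups lay far below the reference and overlapped. The difference of 0.10 (95% interval -0.65 to 0.86, adjusted p 0.852) at chr4:88920405-88920464 (mm9) has a wide interval, and a second probe gave -0.45 (adjusted p over probes 0.439).

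Most members stood below the cell-line reference. The sham mean was below 0 in 46 of the 49 members (93.9%), and in 46.3% of all names tested. In PPE it was still below 0 in 47 of 49. The median sham level was -3.28 for the mitotic members, -2.29 for replication, -1.02 for G1 and -1.47 for the inhibitors. In PPE these medians were -1.92, -1.69, -0.69 and -1.25. The members above the reference in sham were Ccnd2, Ccnd3 and Cdkn1b. The dyes were not swapped, so a single level can carry a constant bias of its probe and was not tested against 0. Where 0 lies also depends on the loess scaling, and the offset draws the levels of dim probes towards it. In the green channel alone, which held the same reference on every array, the members differed between groups by -0.20 to 0.20. These green values were worked back from the loess ratio and from brightness scaled between arrays, so they are not raw signals.

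**Figure D3:**
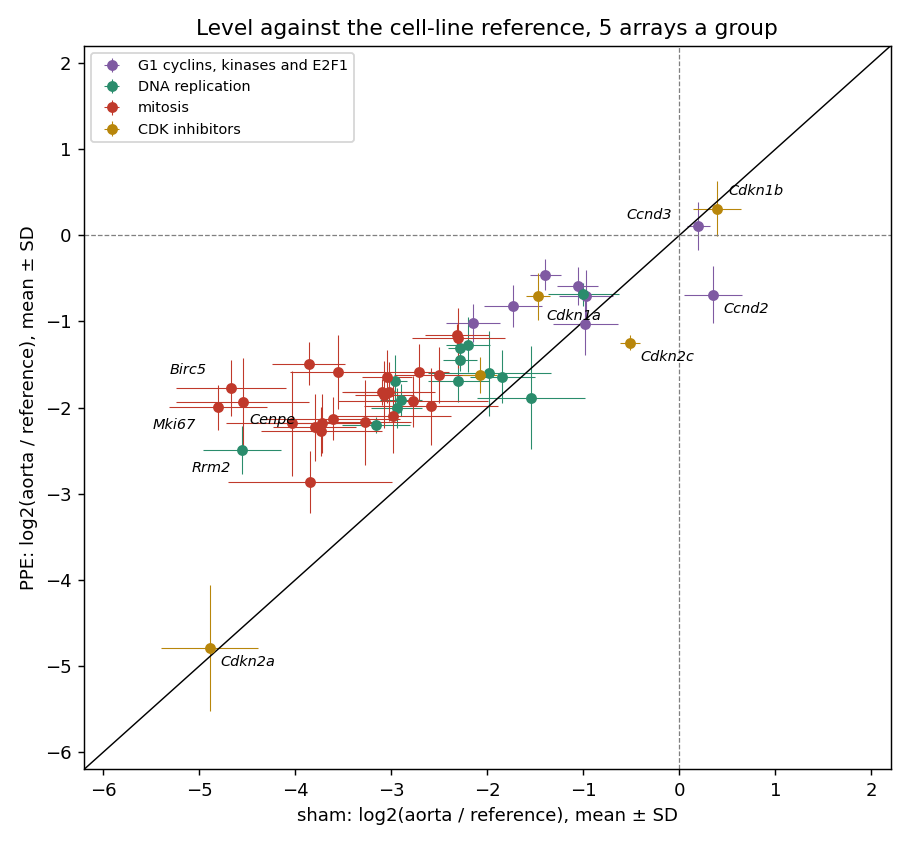
Mean log2 ratio of aorta over reference in sham (horizontal) and PPE (vertical) for the 49 members tested, with SD bars over 5 arrays, the diagonal of equal levels and dashed lines at the reference. Nearly all points lie below the reference on both axes, Birc5, Mki67, Cenpe and Rrm2 lie well above the diagonal, and Ccnd2 and Cdkn2c lie below it.

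Arrays differed within groups in a common way. Over the 23 mitotic members, the median level was -4.04, -3.15, -3.33, -3.40 and -2.70 on sham 1 to 5 and -2.02, -2.34, -1.73, -1.71 and -1.71 on PPE 1 to 5. PPE 2 was thus the lowest PPE array and sham 5 the highest sham array. Of the 30 members that rose, sham 1 was the lowest sham array in 27, sham 5 was the highest in 25, and PPE 2 was the lowest PPE array in 21. The share of spots with aortic signal well above background was 62.1% on sham 1, 37.6% on sham 5 and 65.3% on PPE 2. The part of array brightness in this order was not tested. With processed signals, the mitotic medians ran from -4.85 to -3.84 in sham and from -2.60 to -1.98 in PPE. Leaving out sham 1 left 29 members higher, and leaving out sham 5 left 32.

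The arrays lay on 5 slides. The first, scanned on a day of its own, carried 1 sham array (sham 1) with PPE 1 and PPE 2. On slide 2 were PPE 3 and PPE 4 beside sham 2 and sham 3, and the remaining 3 slides had 1 array each and gave no value. Within slide 1 the median difference was 1.71 for mitotic and 1.09 for replication members, and within slide 2 it was 1.45 and 0.98. All 23 mitotic members were higher in PPE on both slides, and the like count over all names was not taken. The slide 1 differences rest on sham 1 alone, which had the lowest mitotic median of all arrays (-4.04). With slide as a fixed block, 35 of the 49 members were higher, against 3146 of all 22520 names.

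**Figure D4:**
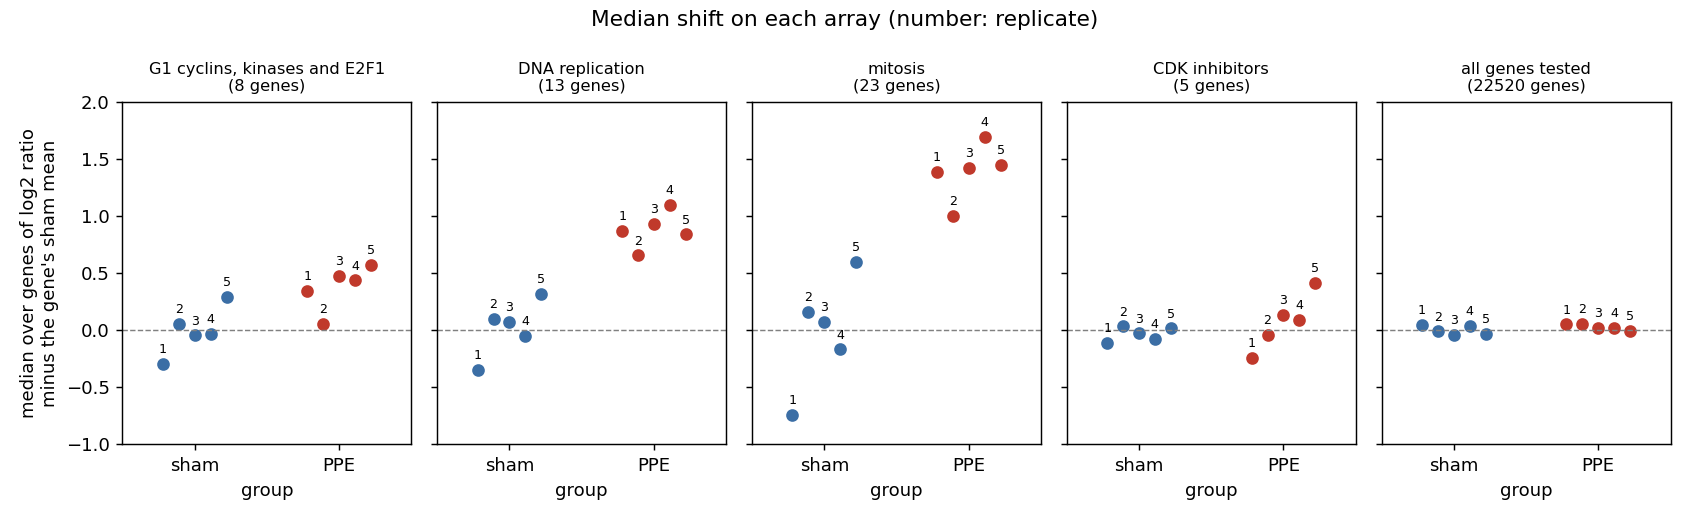
Median over genes of the log2 ratio minus each gene's sham mean, for the 4 roles and for all 22520 names, with 1 point per array labelled by its replicate number. Mitotic medians of the PPE arrays lie above those of every sham array, which run from -0.74 to 0.60, while the medians of all names stay near 0.

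A wider list of 75 other cell cycle genes was read by the same test. It was chosen with earlier results of these data known, so it is no independent check. Of 74 tested, 33 rose (44.6%, against 13.9% of all names) and 2 fell (2.7%, against 9.96%), with a median difference of 0.74. Median centring left 13 of the 74 higher and 0 lower, against 408 and 8 of all 22520 names. Among 21 genes of origins and forks, 11 rose and 0 fell. They were led by Uhrf1 (2.13), which carries DNA methylation through replication, the licensing factor Cdt1 (1.75) and the flap nuclease Fen1 (1.59). Among 26 tested genes of spindle, kinetochore and condensin, 14 rose and 1 fell. Spc25 of the kinetochore (2.14), the spindle pole gene Aspm (1.74) and Racgap1 of cytokinesis (1.71) had the largest rises. Pttg1, which encodes securin, the inhibitor of separase, fell by 0.69 (adjusted p 0.00312), while separase itself, Espl1, rose by 1.06.

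Among 19 genes of transcription and phase control, 7 rose (36.8%, against 13.9% of all names) and 1 fell (5.26%, against 9.96%). E2f8 (1.77) and E2f2 (1.62), a repressing and an activating E2F factor, and Cks2 (1.37), a small CDK partner, led them. Wee1, the kinase that holds back Cdk1, fell by 0.84 (adjusted p 0.000194). Foxm1, a factor that drives mitotic genes, had a difference of 0.47 (adjusted p 0.0603), and Mybl2 had 0.10 (0.739). Genes of p53 and arrest rose in 1 of 8 (12.5%), near the share of all names. Gadd45a rose by 0.95 (adjusted p 0.00828) and the other 7 did not pass, p53 itself (Trp53, 0.52, adjusted p 0.0639) and Mdm2 (0.56, 0.0214) among them.

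Markers of cell types moved between the same groups. Of 7 macrophage markers 5 rose (71.4%), as did 4 of 7 for T cells (57.1%) and 4 of 6 for fibroblasts (66.7%). Over all names 13.9% rose. For neutrophils, S100a8 and S100a9 rose among 3 markers that were above background in sham. Mmp8 and Ngp were above background on 0 sham and 5 PPE arrays, with bounds of 4.07-fold and 3.08-fold. B cell markers gave 0 calls of 5, and endothelial markers 0 of 6. Of 6 smooth muscle markers 5 fell (83.3%), and 1 of 6 adipocyte markers, Ucp1, fell too (16.7%), against 9.96% of all names. The mean level over the macrophage list was 0.20 to 0.61 in sham and 2.08 to 3.30 in PPE, and over the smooth muscle list 3.77 to 4.65 and 1.98 to 3.22. For the 3 neutrophil markers seen in sham it was 0.96 to 1.28 and 3.72 to 4.38 (0.58 to 0.77 and 2.75 to 3.89 with Mmp8 and Ngp), for T cells -0.79 to 0.30 and 0.95 to 2.07, and for fibroblasts 2.68 to 3.14 and 3.61 to 4.61. Unlike the members, some markers differed in the green values, by -4.17 (Ucp1) to 3.16 (S100a9). The values of both channels were worked back in the way given above, and whether the reference signal itself differed was not tested. The fibroblast median of 1.22 was 0.46 in the red values, where Col1a1 had 0.39, Col1a2 0.05 and Col3a1 0.53. Their green values were -1.65, -1.16 and -1.42. The part of cell makeup in the rise of the cell cycle members was not tested, nor which cells carried their RNA.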

How the data were processed

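RNA of 5 sham and 5 PPE aortas was read on 2-colour Agilent arrays, aorta in Cy5 and the universal reference in Cy3, with no dye swap. Groups and replicate numbers come from the labels. The authors extracted the spots with Feature Extraction 10.7.3.1. Each deposited spot signal, and its local background, is a linear intensity. The authors' series matrix holds log2 ratios, equal to processed red over green on 100% of spots here. Its scale is unstated, and it was used as an alternative. Per the study's methods, arrays of poor hybridization and outlying arrays had been removed by the authors, which can widen the distance between groups.

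In R 4.3.3 with limma 3.58.1, mean signals were corrected by normexp (offset 50) and normalized by loess within each array, which takes changes to be balanced at each brightness. Control spots, and 176 to 331 outlier spots per array, were dropped, and repeated spots of a probe were averaged. Probes entered the test with red signal flagged as well above background on 5 or more arrays (in a share of 0.5 or more of their spots). A gene name was represented by its tested probe of highest mean brightness. No spot was saturated. Arrays carry no read depth, so their number limits the precision. Groups were compared by limma, two-sided and unpaired, with Benjamini-Hochberg adjustment over 22520 names and a threshold of 0.01, after the study's false discovery rate of 1%. Without adjustment, 9825 names had a p under 0.05. SAM, which the study used, was coded again for an alternative, with 100 relabellings. The fit was tested on simulated data with 200 of 22489 genes changed. There limma recovered 2.99% of true log2 changes of 0.5, 44.8% of those of 1 and 87.9% of those of 2. Far more names were called in the real data, so these shares do not carry over to it directly.

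Probe positions are those of the files (mm9), and promoter windows are RefSeq's (GRCm38.p6), with no conversion between the builds. Names were those of the array, with Orc1 found as Orc1l, Orc6 as Orc6l and Adgre1 as Emr1, and Ly6g not found. The members, the wider list, the markers and the tests were chosen with earlier results of these data known. Full values were given for the 3 largest called changes of each role, called members that went against their role, the CDK inhibitors, the D-type cyclins, Mki67, Top2a and Pcna. In each wider list only the difference was given, for up to 3 called genes in each direction. Incenp, Cdca8, Espl1, Foxm1, Mybl2, Trp53 and Mdm2 were named after their values were seen.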

Additional observations from a re-analysis of the deposited data

Results flagged for a closer look

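In 98 groups of 5 arrays (49 members in sham and in PPE), 4 held an array whose gap to its neighbour was large for the range of its group. Chance gives about 1 in 20. Ccnd2 on sham 3 was -0.17, next to 0.41, and was the sham value nearest to PPE. Ccnd3 on PPE 5 was 0.60, next to 0.05. Rrm1 on sham 1 was -3.17, next to -2.94. Cdkn2b on sham 4 was -1.76, next to -2.11, and it lay inside the PPE range.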

How the results depend on the processing

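No member changed sign under any of the 24 alternatives while called in either fit. Of 14 that kept every array, Aquantile leaves log ratios as they are and the series matrix equals the processed signals, so neither adds a check. Of the other 12, 10 kept all 32 calls among the members or lost only Aurka. The mean of a gene's probes lost Ccnb1, Cdkn1a and Mad2l1 and gained Cdk4. The main exception was to centre arrays on their median without loess, which moved the median difference of all names to 0.41 and the share of higher calls from 58.2% to 98.1%, with 408 names higher and 8 lower. It left 8 members higher, 7 of them mitotic and 1 of replication, and 0 G1 members, 0 inhibitors and 0 lower members. The members' median was then 1.58, which is 1.17 above that of all names. In the wider list it left 13 higher and 0 lower. With processed signals the share of higher calls was 50.6%, and 37 members were higher. SAM called 4768 names higher and 2 inhibitors. The slide as a random block also gave 2 higher inhibitors, and the mean of probes gave 0. Leaving out 1 array at a time gave 1 to 2 higher inhibitors (2 without sham 4, with Cdkn2b) and 1 to 2 lower genes of the wider list (1 without PPE 4). The red channel alone and the slide as a fixed block each gave 1 lower gene there. Members called higher numbered 28 to 32 when any 1 array was left out. Replicate numbers did not pair the arrays, since deviations of same-numbered arrays correlated from -0.30 to 0.52. With the replicate block 31 members were higher and 2 lower, 1 more than without it (Gmnn), and no call was lost. The cause of these shifts was not tested. Dim probes limit the values: 4 members were too dim to enter the test, and normexp with its offset understates changes of dim probes.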
